A study of Bos taurus with 14 samples.

Results

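The genes described here were the ubiquitin-conjugating enzymes whose symbols begin with *UBE2* and the RING finger proteins whose symbols are *RNF* followed by a number, measured in bovine *M. longissimus dorsi* (LD), a back muscle. A probe set (a group of array oligonucleotides read together as 1 value) was taken as a member if its annotation named 1 such gene, and the probe set with the highest mean over all arrays stood for each gene. These were 67 genes, 26 *UBE2* and 41 *RNF*. Of them 66 were among the 9155 named genes that the same procedure gave over the whole array. *RNF149* was the exception: the annotation used here held no entry for its probe set, which was named from the study alone. It was added as a member because it was on the study's list of genes called on these arrays. RefSeq's assembly ARS-UCD2.0 listed 116 bovine genes of these kinds, 34 *UBE2* and 82 *RNF*.

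The animals were 14 Charolais × Limousin crossbred heifers, 7 that grazed outdoors (the outdoor/pasture-fed group) and 7 that were housed and ate concentrate with barley straw (the indoor/concentrate-fed group). Each gave 1 RNA sample and 1 Affymetrix Bovine array, and by their labelled replicate numbers the animals are written P1 to P7 (pasture) and C1 to C7 (concentrate) here. Housing and diet went together, so their effects cannot be told apart. The sample labels gave no age or batch, and by the study's methods the animals of each system were kept in several groups, whose makeup was not analysed here, so every test took the animals as independent.

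Ubiquitin is a small protein that cells attach to other proteins as a signal, often for destruction by the proteasome. An activating enzyme (E1) charges ubiquitin and passes it to a conjugating enzyme (E2, here the *UBE2* genes), and a ligase (E3) chooses the target. RING finger ligases, among them the *RNF* proteins, hold the charged E2 and the target together. In skeletal muscle this route removes contractile proteins, and its activity is known to climb in wasting muscle.

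Values were deposited on a log2 scale, and every difference below is the outdoor/pasture-fed mean minus the indoor/concentrate-fed mean, so a negative difference means a lower level at pasture. The array's summary method leaves many probe sets at nearly the same value in every animal. A gene was called varying where its SD over the 14 arrays exceeded 0.01, which held for 40 of the 67 members (59.7%) and for 4641 of the 9155 named genes (50.7%). The other 27 members carried no usable difference. Among the *UBE2* genes these were *UBE2B*, the broad-purpose *UBE2D2* and *UBE2D3*, *UBE2J2*, *UBE2L3*, the mitotic *UBE2S*, *UBE2T* and the E2 partner *UBE2V1*. Among the *RNF* genes they were the polycomb ligase *RNF2*, the SUMO-reading ligase *RNF4*, *RNF5*, *RNF8*, *RNF11*, *RNF13*, *RNF14*, *RNF19A*, *RNF39*, *RNF43*, *RNF111*, *RNF126*, *RNF166*, *RNF170*, *RNF183*, *RNF185*, *RNF214*, *RNF216* and *RNF220*. In *UBE2B* and *RNF14* another, dimmer probe set did vary. Mean levels of the members ran from 5.41 for *RNF43* to 12.77 for *UBE2B*, with *UBE2S* (6.25) the dimmest *UBE2* gene and *RNF11* (12.56) the brightest *RNF* gene, and since probe sets differ in brightness no order between genes was read from them.

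**Figure D1:**
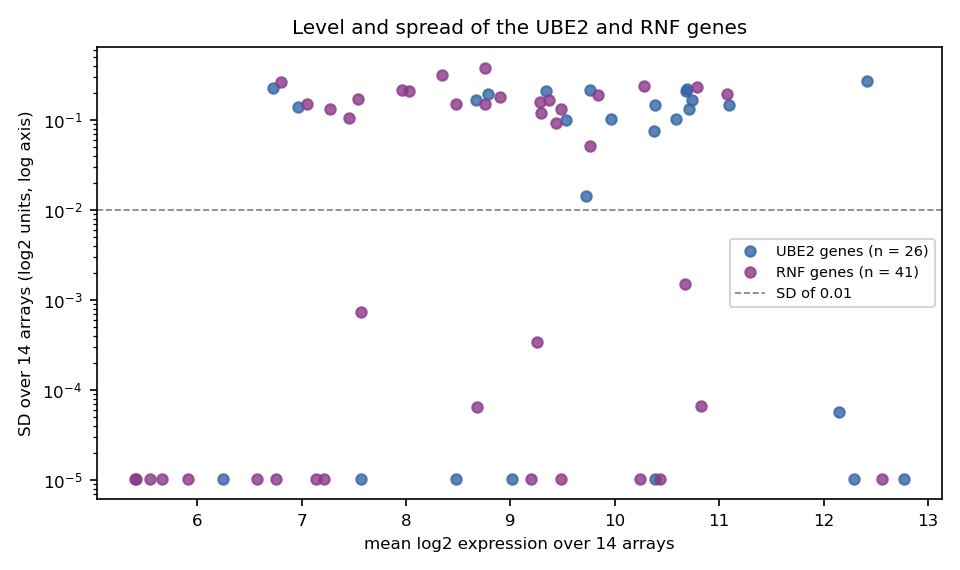
Each point is 1 member, with its mean log2 level over 14 arrays on the horizontal axis and the SD of its 14 values on a logarithmic vertical axis. The line at 0.01 separates the 40 varying members from the 27 whose values hardly moved.

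Of the 67 members, none differed at an adjusted p below 0.05 (limma, Benjamini-Hochberg over all 24016 bovine probe sets), against 4 of 24016 probe sets (0.0167%) on the whole array. Without that adjustment 10 members had p below 0.05. Of these 3 were higher at pasture (*RNF149*, *UBE2H* and *RNF135*), which was 4.48% of the members against 6.03% of all named genes. The other 7 were lower (*UBE2E1*, *RNF19B*, *RNF181*, *RNF121*, *UBE2A*, *UBE2F* and *UBE2N*), or 10.4% against 8.15%. These shares were near those of named genes at large. *RNF149* counts toward the higher share only because the study's list from these arrays brought it in. The named genes hold no gene added in that way.

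When the fit was limited to the 9623 varying probe sets, 33 (0.343%) passed, and 2 of them were members, *UBE2E1* and *RNF149*. Both calls were unstable. With each array left out in turn from this fit, *UBE2E1* passed in 2 of 14 fits (adjusted p 0.0305 to 0.0970) and *RNF149* in 7 of 14 (0.0182 to 0.0738). No member passed without P3, P4, P5, P6, C3, C5 or C7, and 1 passed without P1, P7, C1, C2 or C4. *RNF149* was on the study's own list from these arrays and *UBE2E1* had been singled out in an earlier analysis of them, so their tests are not independent evidence. They were also the only members whose groups did not overlap. In *RNF149* every outdoor/pasture-fed value lay above every indoor/concentrate-fed value. The same held for 0.197% of named genes, which do not include *RNF149*. *UBE2E1* was among the 0.218% of named genes with every outdoor/pasture-fed value below. Each was 1 of 67 members.

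Direction was mixed in both families. Among the varying *UBE2* genes, 7 had a higher mean at pasture and 11 a lower one, with a median difference of -0.06. The varying *RNF* genes were divided evenly, 11 and 11, with a median of 0.00310. Over all 40 the median was -0.022, against -0.018 for varying named genes, of which 2583 of 4641 were lower, and to 2 decimals the median size of a difference was 0.10 in both. Since whole muscle was homogenised, fewer cells of a type and less RNA per cell cannot be told apart in any of these values.

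**Figure D2:**
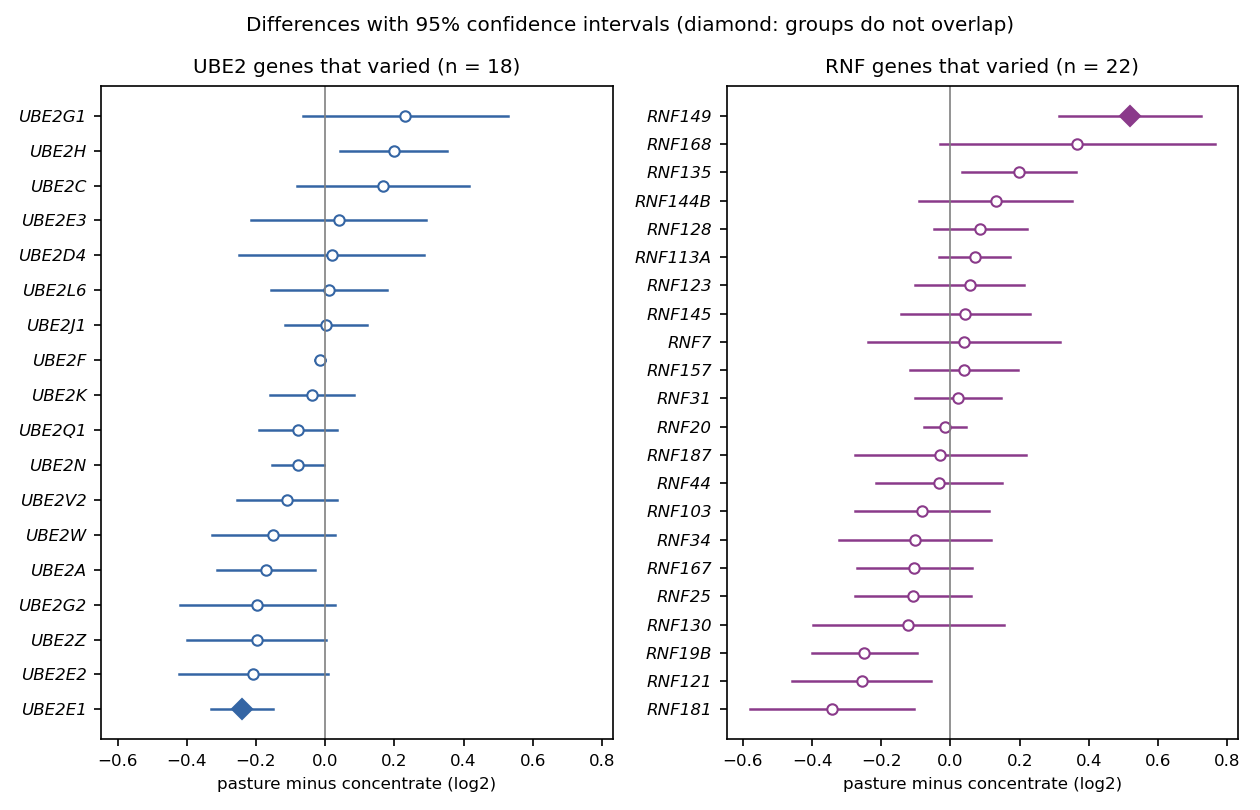
The difference between group means (outdoor/pasture-fed minus indoor/concentrate-fed, log2) with its 95% confidence interval is drawn for the 18 varying *UBE2* and the 22 varying *RNF* genes. Diamonds mark *UBE2E1* and *RNF149*, whose groups did not overlap, and most other intervals cross 0.

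*UBE2E1* encodes an E2 with an extension ahead of its catalytic core, which it shares with its close relatives *UBE2E2* and *UBE2E3*. In P1 to P7 its level was 10.84, 11.13, 11.04, 10.95, 10.98, 11.01 and 10.88. In C1 to C7 it was 11.20, 11.22, 11.29, 11.26, 11.18, 11.14 and 11.22. All 7 values at pasture lay below all 7 indoors, although P2 and C6 nearly met. The means were 10.97 ± 0.10 and 11.22 ± 0.05 (SD, n = 7 each), a difference of -0.24 (SE 0.04, 95% interval -0.33 to -0.15), or a 1.18-fold higher level indoors. The exact two-sided permutation p was 0.000583, the smallest that 7 against 7 animals can give. The limma adjusted p was 0.105 over the whole array and 0.0471 among varying probe sets. Without P2 the first of these was 0.0406, with a difference of -0.27. Only 1 probe set named the gene.

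*UBE2E2* was at 9.11, 9.49, 9.35, 8.92, 9.11, 9.50 and 9.17 in P1 to P7 and at 9.51, 9.23, 9.52, 9.46, 9.64, 9.49 and 9.26 in C1 to C7. The groups overlapped, with 4 of 7 values at pasture below all values indoors. Its difference of -0.21 (SE 0.10, interval -0.42 to 0.01) came with a limma adjusted p of 0.457 and an exact p of 0.0589. *UBE2E3* was at 10.51, 10.72, 10.75, 10.68, 10.80, 10.78 and 10.69 at pasture and at 10.88, 10.11, 10.44, 10.94, 10.84, 10.80 and 10.64 indoors. Its indoor values enclosed those at pasture, and its difference of 0.04 (SE 0.12, interval -0.21 to 0.29) became -0.05 without C2.

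Whether *UBE2E1* stood apart from its relatives was asked within each array, as its value minus theirs, in a family of 5 such comparisons. Against the mean of *UBE2E2* and *UBE2E3* its difference was -0.16 (SE 0.09, exact permutation p = 0.103, adjusted over the 5 to 0.128), and with single arrays left out it ran from -0.19 without C5 (exact p = 0.0472) to -0.092 without C2. Against *UBE2E2* alone it was -0.03 (SE 0.09, exact p = 0.702), which is within its error and changed sign without P6 or C2. Against *UBE2E3* alone it was -0.28 (SE 0.12, exact p = 0.0169, adjusted 0.0282). It was -0.19 without C2 (exact p = 0.0233), and its p was 0.0594, 0.0536 and 0.0589 without P5, P6 and P7. The 5 comparisons also held those of *RNF149*, a gene entered with its difference known. Their small p-values lowered the adjusted values of 0.128 and 0.0282, so no pass is read from the latter. The comparisons with single relatives were added after the values had been seen. Since *UBE2E1* had been singled out in an earlier analysis of these arrays, these values describe how far it stood from its relatives.

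**Figure D3:**
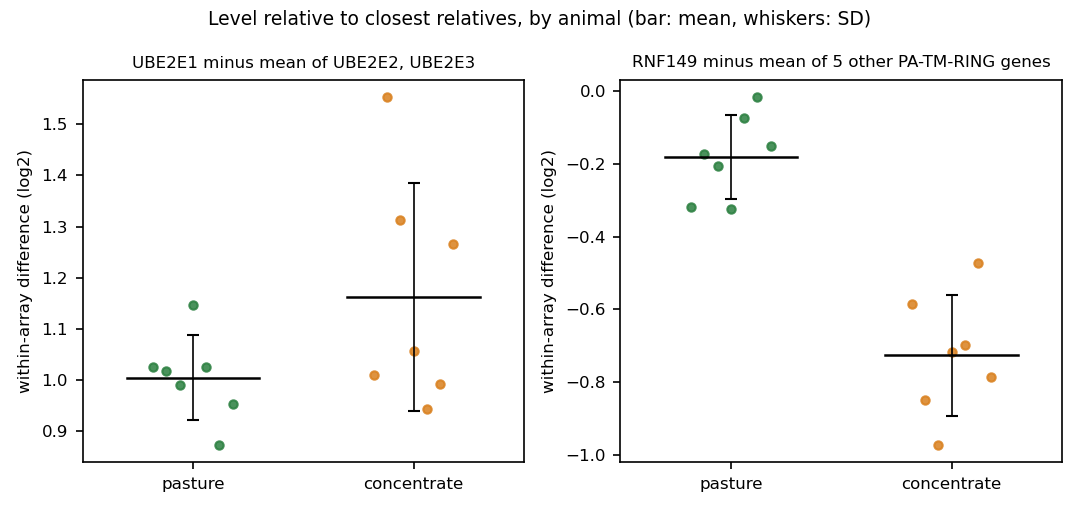
Each point is 1 animal. The vertical axis gives, in log2 units within an array, the level of *UBE2E1* minus that of its relatives or the level of *RNF149* minus that of its relatives, and bars give group means ± SD (n = 7). For *RNF149* against the mean of 5 relatives the outdoor/pasture-fed animals lie from -0.32 to -0.02 and the indoor/concentrate-fed animals from -0.97 to -0.47.

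The remaining E2 genes with the smallest p-values overlapped between groups. *UBE2H*, the E2 that works with the large CTLH ligase complex, ran from 10.68 over a median of 10.83 to 10.94 at pasture and from 10.31 over 10.69 to 10.80 indoors. Of its 7 values at pasture 5 were above all indoor values, and the difference was 0.20 (SE 0.07, limma adjusted p = 0.313, exact p = 0.00932). Without C2 that difference was 0.14. A second *UBE2H* probe set was nearly flat (difference 0.00622). *UBE2A*, which acts in histone ubiquitination and DNA damage tolerance, ran from 10.13 over 10.31 to 10.46 at pasture and from 10.31 over 10.43 to 10.63 indoors. Its difference of -0.17 (SE 0.07, exact p = 0.0262, limma adjusted p = 0.342) was -0.04 (SE 0.06) at a second probe set. The related *UBE2B* was flat at its brightest probe set, and at another (mean 9.34) the difference was 0.06.

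*UBE2N*, which builds signalling chains of ubiquitin together with *UBE2V1* or *UBE2V2*, ran from 10.25 to 10.47 at pasture and from 10.35 to 10.47 indoors. Its difference was -0.08 (SE 0.03, limma adjusted p = 0.412, exact p = 0.0455), and *UBE2V2* had -0.11. Of the E2 genes for degradation of proteins from the endoplasmic reticulum, *UBE2G2* had a difference of -0.20 (SE 0.10, exact p = 0.0746) at its main probe set and -0.01 (SE 0.05) at another, and *UBE2G1* had 0.23 (interval -0.06 to 0.53) and 0.12 without C2. *UBE2Z*, which takes ubiquitin from the E1 enzyme UBA6, had -0.20 (SE 0.09, exact p = 0.0157, limma adjusted p = 0.443), and -0.12 without C2. The difference of *UBE2G2* was likewise -0.12 without that animal.

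Of the E2 genes not yet given, *UBE2C*, which works with the anaphase-promoting complex, had a difference of 0.17 (SE 0.11) and *UBE2W*, which modifies the first residue of proteins, had -0.15 (SE 0.08). *UBE2Q1* had -0.08 (SE 0.05). The others that varied were *UBE2K* (-0.04), *UBE2D4* (0.02) and *UBE2J1* (0.00163), each smaller than its SE. The differences of *UBE2D4* and *UBE2J1* changed sign with single animals left out.

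Some *UBE2* enzymes carry a ubiquitin-like modifier. *UBE2F*, which conjugates NEDD8, the modifier that switches on cullin ligases, spanned only 9.70 to 9.74 at pasture and 9.72 to 9.75 indoors. Its difference of -0.02 (SE 0.01, exact p = 0.0379, limma adjusted p = 0.398) rested on a total SD of 0.0145, close to the limit for a varying gene. *UBE2L6*, which conjugates the interferon-induced modifier ISG15, was at 6.97 ± 0.15 at pasture and 6.96 ± 0.14 indoors (SD, n = 7 each). That difference, 0.01 (SE 0.08, interval -0.16 to 0.18), changed sign with single animals left out.

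**Figure D4:**
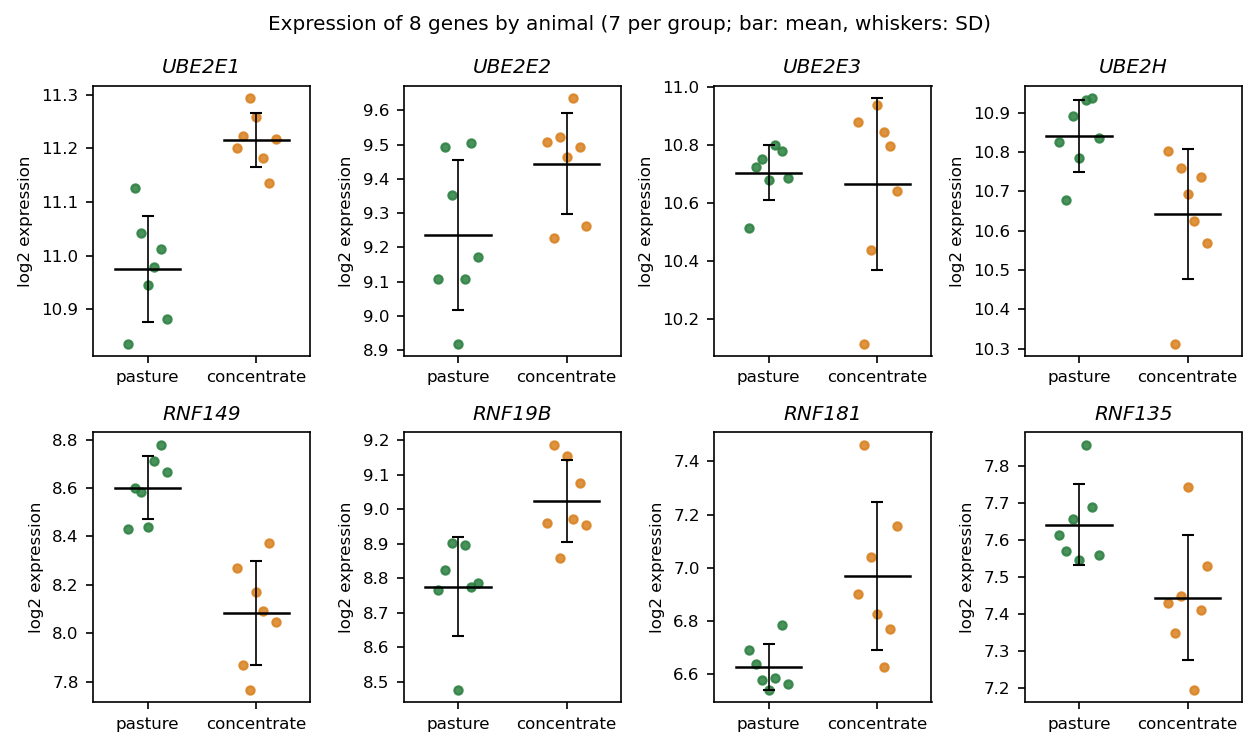
Log2 levels of 8 members in the 14 animals, with 1 panel a gene, 1 point an animal and bars for the group mean ± SD (n = 7). The panels of *UBE2E1* and *RNF149* show groups that do not overlap, and those of *UBE2E2*, *UBE2E3*, *UBE2H*, *RNF19B*, *RNF181* and *RNF135* show groups that do.

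*RNF149* belongs to the PA-TM-RING ligases, membrane proteins with a protease-associated domain on the luminal side and a RING finger in the cytosol. Its level in P1 to P7 was 8.43, 8.60, 8.59, 8.44, 8.71, 8.78 and 8.67. In C1 to C7 it was 8.27, 7.87, 7.77, 8.17, 8.09, 8.37 and 8.05. All values at pasture lay above all values indoors, P1 and C6 coming closest. The means were 8.60 ± 0.13 and 8.08 ± 0.21 (SD, n = 7 each), a difference of 0.52 (SE 0.09, interval 0.31 to 0.72), or 1.43-fold. The exact permutation p was again the smallest possible, 0.000583, and the limma adjusted p was 0.123 over the whole array and 0.0286 among varying probe sets.

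Of 9 PA-TM-RING genes listed 6 were measured and 4 varied. The other measured ones did not show that separation. *RNF128*, a ligase known from T cell unresponsiveness, ran from 9.27 over a median of 9.33 to 9.44 at pasture and from 8.93 over 9.32 to 9.36 indoors (difference 0.09, SE 0.06, exact p = 0.188). *RNF167*, a ligase of the endosomal and lysosomal route, ran from 8.64 over 8.73 to 8.79 and from 8.69 over 8.72 to 9.21 (difference -0.10, SE 0.08, exact p = 0.233). *RNF130* ran from 10.08 over 10.20 to 10.37 and from 9.80 over 10.37 to 10.71 (difference -0.12, SE 0.13, exact p = 0.357). Without C2 these 3 differences were 0.03, -0.04 and -0.21. *RNF13* and *RNF43*, the latter a ligase for Wnt receptors, were flat.

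Set against the mean of these 5 relatives within each array, *RNF149* differed between the groups by 0.55 (SE 0.08, exact permutation p = 0.000583, adjusted over the 5 comparisons to 0.00146), and with single arrays left out by 0.51 to 0.59. Against the 3 relatives that varied, a comparison added after the values had been seen, the difference was 0.56 (SE 0.07, adjusted p = 0.00146 from the exact test). In both comparisons all 7 outdoor/pasture-fed values lay above all indoor/concentrate-fed values. Since *RNF149* entered with its difference known, these values describe how far it stood from its relatives.

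Markers of other cells differed by cell type. Of 6 endothelial genes 5 were measured, and their mean level ran from 8.72 to 9.04 at pasture and from 8.24 to 8.69 indoors, without overlap. Differences were 0.54 for *PECAM1*, 0.59 for *CDH5*, 0.43 for *TEK* and 0.23 for *KDR* (unadjusted limma p below 0.05 for each, none after adjustment), and *VWF* was flat at 5.75. At that unadjusted limit 6.03% of all named genes were higher and 8.15% lower. The Schwann cell marker *S100B*, the only 1 of 3 measured, had a difference of 0.57, and its groups overlapped. All 8 leukocyte markers were measured, and their mean level overlapped, at 6.68 to 7.15 against 6.45 to 7.06. Mean levels of adipocyte, smooth muscle and satellite cell markers also overlapped, with differences of -0.21, 0.14 and -0.24. None of their genes had an unadjusted limma p below 0.05. The part of these cells in the *RNF149* or *UBE2E1* values was not tested. Muscle fibre markers, 10 of 12 measured, had mean levels of 13.00 to 14.41 in this tissue labelled as muscle, and their average ran from 13.77 to 13.81 at pasture and from 13.68 to 13.80 indoors. Of these 10 genes 5 varied. At an unadjusted limma p below 0.05, *MYH1* was higher at pasture (difference 0.14, SE 0.03) and *TNNC2* lower (-0.015, SE 0.004), and none passed after adjustment. The 4 red blood cell markers had mean levels from 5.25 to 5.60.

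Of the other ligases, *RNF19B*, a RING-between-RING ligase described in natural killer cells, ran from 8.48 over a median of 8.79 to 8.90 at pasture and from 8.86 over 8.97 to 9.19 indoors. Of the values at pasture 5 lay below all indoor values, with a difference of -0.25 (SE 0.07, exact p = 0.00175, limma adjusted p = 0.234). *RNF181* ran from 6.54 over 6.59 to 6.78 and from 6.63 over 6.90 to 7.46 (difference -0.34, SE 0.11, exact p = 0.00466, limma adjusted p = 0.267). Its indoor group was the more spread, with an SD of 0.28 against 0.09, and without C2 its difference was -0.26. *RNF121*, a membrane ligase of the early secretory route, ran from 7.63 over 7.74 to 8.09 and from 7.89 over 8.11 to 8.34 (difference -0.26, SE 0.09, exact p = 0.0233, limma adjusted p = 0.313).

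In the interferon and antiviral list 2 of 5 *RNF* genes were measured and 1 varied, *RNF135*, an activator of the RNA sensor RIG-I. It ran from 7.55 over 7.61 to 7.86 at pasture and from 7.19 over 7.43 to 7.74 indoors (difference 0.20, SE 0.08, exact p = 0.0221, limma adjusted p = 0.337), and only 1 value at pasture exceeded every indoor value. Among 6 measured ligases of chromatin and DNA damage, 2 varied, *RNF168* and *RNF20*. *RNF20*, a ligase for histone H2B, had a difference of -0.01 (SE 0.03). *RNF168*, which marks histones at DNA breaks, had a difference of 0.37 (SE 0.18, exact p = 0.0711) and 0.16 (SE 0.10) at a second probe set. In no list, *RNF113A*, a splicing and repair factor, had 0.07 (SE 0.05, exact p = 0.151). *RNF25*, also in no list, had -0.11 (SE 0.08, exact p = 0.164), and -0.04 without C2. The remaining 10 varying *RNF* genes lay between -0.10 for *RNF34* and 0.13 for *RNF144B* (0.20 and 0.28 at its other probe sets), among them *RNF7*, a RING partner of cullins, at 0.04 (-0.06 without C2) and *RNF31*, the ligase of linear ubiquitin chains, at 0.02. Over the 40 varying members the sign of the difference turned in 10 when some single animal was left out, and in 4 of them without C2 (*UBE2D4*, *UBE2E3*, *RNF7* and *RNF44*).

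C2, an indoor/concentrate-fed animal, recurred at the ends of these ranges. In 22 of the 40 varying members (55%) it was the highest or the lowest of its group, 11 times each, against 43.6% of the 4641 varying named genes. P5 came next, as the highest outdoor/pasture-fed animal in 12 members and the lowest in 8. The fibroblast markers, 6 of 6 measured, were at their highest mean level in P5 (12.13, others at pasture 10.57 to 11.44), and in C2 they were at 11.07, within the indoor range of 10.82 to 11.80. The part of fibroblasts in these values was not tested. The SD was larger indoors in 23 of 40 members (57.5%), and in 19 of 40 (47.5%) without this animal, against 60.5% and 53.8% of varying named genes. Without it no member passed over all probe sets, and 3 higher and 7 lower members had unadjusted p below 0.05. The differences of *UBE2E1* and *RNF149* were then -0.24 and 0.48.

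**Figure D5:**
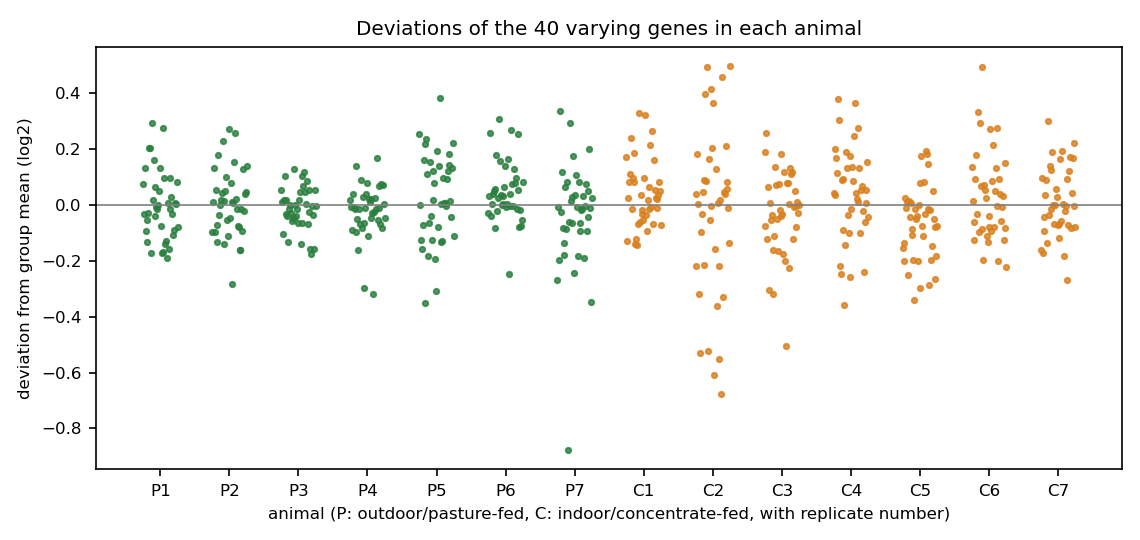
Deviation of each animal's log2 value from the mean of its own group, for the 40 varying members, with the outdoor/pasture-fed animals (P1 to P7) and the indoor/concentrate-fed animals (C1 to C7) along the horizontal axis and 1 point a gene. The points of C2 spread widely, and it was the highest or lowest animal of its group in 22 of 40 members.

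No gene in the lists of other ubiquitin genes passed an adjusted p of 0.05, on the whole array or among varying probe sets. Over all named genes 6.03% were higher and 8.15% lower at an unadjusted p below 0.05, and the shares below stand beside these. Of 9 E1 genes 7 were measured and 5 varied, all 5 with a lower mean at pasture, and 3 (42.9%) had an unadjusted p below 0.05. *NAE1*, a subunit of the NEDD8 E1, had a difference of -0.20 (SE 0.04, exact p = 0.00175, limma adjusted p = 0.147). *SAE1*, a subunit of the SUMO E1, had -0.15 (SE 0.05, exact p = 0.0175). Of 18 core genes of cullin ligases 8 were measured and 5 varied, again all lower, with 3 (37.5%) below the unadjusted limit. The substrate receptor *FBXW7* had -0.55 (SE 0.15, exact p = 0.00758, limma adjusted p = 0.219) and the adaptor *ELOC* -0.10 (SE 0.04).

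Of 13 ligases known from muscle atrophy 8 were measured and 7 varied, 5 higher and 2 lower. The sarcomeric ring protein *TRIM54* was the only one below the unadjusted limit, or 12.5% of those measured (difference -0.45, SE 0.19, exact p = 0.0268). *MDM2* had 0.09, and the atrophy ligase *FBXO32* had 0.02 (SE 0.23). Of the 12 measured HECT ligases 8 varied, 2 higher and 6 lower, and 1 (8.33%) was below the limit, *UBE3C* (-0.31, SE 0.11, exact p = 0.0181), while *HERC4* had -0.05. Of 25 measured deubiquitinases, which remove ubiquitin, 18 varied, 4 higher and 14 lower, with 1 (4%) and 7 (28%) below the unadjusted limit. The proteasomal deubiquitinase *PSMD14* had -0.20 (SE 0.06, exact p = 0.0122) and *OTUD4* had 0.16 (SE 0.06, exact p = 0.0455).

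The 5 measured genes of ubiquitin and its relatives, the 5 E2 genes under other names and the 4 other RING-between-RING ligases held none below the unadjusted limit. In these lists *SUMO3* had -0.09 and *CDC34* -0.14, whereas *URM1*, *UFC1*, *ARIH1* and *ANKIB1* were flat. Of 6 other membrane RING ligases, *MARCHF8* and *SYVN1* were below it, 1 in each direction, but both were flat.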

How the data were processed

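LD muscle RNA of 14 heifers was hybridised to Affymetrix Bovine arrays, 1 per animal, in 2 groups of 7 taken from the sample labels. According to the study's methods the authors read the arrays with simpleaffy and applied FARMS with quantile normalisation (versions not given in the sources used here). The deposited values are log2 levels per probe set, before any filter for informative probe sets. That summary shrinks weak shared signal to a near constant. The number of arrays limits the precision.

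The 112 control probe sets were left out of 24128. Groups were compared with limma 3.58.1 (lmFit and eBayes, R 4.3.3) over all 24016 others, Benjamini-Hochberg adjusted, and with exact two-sided permutation tests over the 3432 assignments (Python 3.11.15). The limma code was tested on simulated data. Platform annotation gave 1 symbol for 13292 probe sets, several for 86 and none for 10638. All 66 annotated members matched RefSeq by gene ID. Of the members 18 had further probe sets.

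Genes named were the *UBE2E* genes, the PA-TM-RING genes, members passing either adjustment, the 8 smallest p-values of each family among varying genes, the ends of each family's levels, E2 genes for other modifiers, and the 2 smallest p-values in each pathway list. Other genes were named by role after their values were seen. Members and lists were chosen with earlier results of these data known. The alternatives were a replicate block, 3 filters, 2 priors, 2 normalisations, array weights, 2 choices of probe set and each array left out.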

Additional observations from a re-analysis of the deposited data

Results flagged for a closer look

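Within a group of 7, an animal was set apart where the gap to its neighbour took up more of the group's range than Dixon's 95% critical value allows. Of 42 groups checked, over 21 varying named genes, 6 met this, and chance gives about 1 in 20, or 2.1. Indoor/concentrate-fed replicate 2 was apart in 3 genes: it was lowest for *RNF128* (8.93, next 9.21) and highest for *RNF25* (7.52, next 7.16) and *UBE2Z* (9.38, next 8.89). Outdoor/pasture-fed animals were lowest in the other 3 genes. These were replicate 7 for *RNF168* (8.06, next 8.88), replicate 4 for *RNF19B* (8.48, next 8.77) and replicate 1 for *UBE2E3* (10.51, next 10.68).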

How the results depend on the processing

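No member passed an adjusted p of 0.05 over all probe sets. The count was 2 with only probe sets of SD above 0.01 (*RNF149* 0.52, adjusted p 0.0286, and *UBE2E1* -0.24, adjusted p 0.0471), 1 with SD above 0.05 (*RNF149* 0.52, adjusted p 0.0266) and 1 with means above the median of all means (*UBE2E1* -0.24, just under the limit). These filters enter fewer probe sets. With single arrays left out it was 0 to 1 (*UBE2E1* -0.27 to -0.22), and in the varying probe sets, an alternative chosen after seeing the data, 0 to 2. The numbers of members with unadjusted p below 0.05 stayed within 2 to 4 higher and 5 to 9 lower over 25 alternatives. *UBE2E1* minus the mean of *UBE2E2* and *UBE2E3* ranged from -0.194 to -0.092 with arrays left out, its exact p being 0.0472 without C5 and above 0.05 otherwise. *RNF149* against its relatives kept an exact p below 0.05 in all 17 alternatives. The gene entered with its difference on these arrays known, so these p-values are not independent evidence.

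Signs turned for differences near 0, and the cause was not tested. *UBE2E3* was -0.036 with array weights and -0.052 to 0.085 with arrays left out. *UBE2L6* was -0.014 with array weights and -0.031 to 0.046 with arrays left out. *UBE2E1* minus *UBE2E2* ran from -0.082 to 0.00434 with arrays left out. Centring on array medians put the median difference of all probe sets at -0.00406.

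With a replicate block, 0 members passed, 2 were higher and 6 lower without adjustment, and the adjusted p was 0.268 for *UBE2E1* and 0.283 for *RNF149*. Exact sign-flip tests over same-numbered animals gave p = 0.156 for *UBE2E1* and 0.0156 for *RNF149* against their relatives. Same-numbered animals shared only a number: their deviations correlated from -0.18 to 0.24, over 0.1 in 2 of 7 pairs, and 2 of 7 correlated best with their own number.

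Limits were the 7 animals a group, housing and diet given together, and an annotation that left 10638 probe sets unnamed. A flat probe set says nothing about its gene.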
